A study of Mus musculus with 13 samples.

Results

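The 49 genes described here encode proteins that carry a cell into and through mitosis, and they were taken by symbol from a table of 43629 genes. The rule that took them uses symbols and no values, and every symbol was found. All 49 genes passed the filter on low values, which 15872 genes passed in all.

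Mitosis begins when cyclin-dependent kinase 1, bound to a B-type cyclin and activated by Cdc25 phosphatases, drives chromosome condensation and spindle assembly. The spindle assembly checkpoint holds the anaphase-promoting complex in check until the kinetochores of all chromosomes are attached to microtubules. The complex then marks cyclin B and securin for destruction, separase cuts cohesin, and the central spindle directs cytokinesis. Many of these genes are transcribed in late S, G2 and M phase. Their RNA in a tissue therefore depends in part on the share of cells in those phases. Dividing thymocytes of the young thymus express these genes strongly.

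RNA was measured in 10 thymic T cell lymphomas and 3 thymuses, each from a different mouse. Of the lymphomas, 5 arose in Atm-/- mice of the 129S6/SvEv strain, which lack the kinase that signals DNA double-strand breaks. The other 5 arose in Rag2c/c p53-/- mice of mixed C57BL/6 and 129S6/SvEv background, which carry a RAG2 recombinase subunit without its C terminus and lack p53. The 3 wild-type (WT) thymuses were C57BL/6 and had been sequenced for another series. Strain, series of origin and disease therefore cannot be told apart in any comparison with WT. Between the lymphoma groups, genotype and strain cannot be told apart. Age and sex were not used here. In bulk tissue, more cells in mitosis and more RNA per cell cannot be told apart.

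The values were read counts divided by a size factor and rounded to whole numbers, called normalized counts below. Column totals ran from 19788898 to 21591289 normalized counts. Estimated depth in M reads, where the low values fixed it, ran from 6.36 to 24.7, and the shallowest libraries were WT 2, Atm-/- 2 and Rag2c/c p53-/- 2. Atm had 1559 to 2274 normalized counts in WT, 208 to 732 in the Atm-/- and 439 to 1315 in the Rag2c/c p53-/- lymphomas, lower than WT in both (limma adjusted p = 0.0017 and 0.0441) and overlapping between the lymphoma groups (adjusted p = 0.135). Trp53 had 4387 to 6341 in WT and 6853 to 11318 in Atm-/- libraries, and reads remained in the p53-/- lymphomas at 2018 to 5461, which overlapped WT. T lineage genes were present throughout, with a summed level of 70269 to 97925 in WT, 48071 to 87203 in Atm-/- and 50528 to 82447 in Rag2c/c p53-/- libraries. Summed fibroblast markers were 403 to 442 in WT, 4137 to 17444 in Atm-/- and 2054 to 3905 in Rag2c/c p53-/- libraries, and none of these 6 markers was at 0 in any library. Summed myeloid markers were 3359 to 3709, 6330 to 10806 and 3688 to 7684 in the same order. Summed B cell markers were 1498 to 1912, 274 to 345 and 166 to 557, and thymic epithelial markers 725 to 1058, 189 to 609 and 287 to 1320. The B cell markers Ms4a1 and Pax5 and the epithelial markers Foxn1 and Psmb11 were at 0 in at least 1 library. Summed endothelial markers were 3615 to 3724, 3201 to 6194 and 1821 to 5262 and came mostly from Pecam1, while Cdh5, Kdr, Tek, Emcn and Esam were each at 0 in at least 1 library, and Cdh5 and Kdr were lower than WT in Rag2c/c p53-/- lymphomas (limma adjusted p = 0.0183 and 0.0335). The part of these cell types in the differences below was not tested.

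Promoters of genes of late cell cycle often hold a cell cycle homology region, a short element spelled TTTGAA or TTCGAA, and CCAAT boxes, which NF-Y binds. Windows from 250 bases before to 50 bases after the start were taken from RefSeq (GRCm38.p6) for 40 of the 49 genes, all but Aurkb, Foxm1, Dlgap5, Incenp, Spc24, Cdc25c, Ccna2, Tpx2 and Kif20a. The 150 bases before the start are printed below for 7 genes, chosen so that genes that rose in both lymphoma groups, in Atm-/- lymphomas alone by the test, and in neither stand side by side. Capitals mark the first element (TTTGAA or TTCGAA) and the CCAAT box on either strand, so that TTCAAA or ATTGG is a match on the other strand. The printed bases are only part of the window. Ccnb2, Bub1b and Kif20b hold the first element outside them. Counted from the start, TTTGAA stood at -167 and 5 in Ccnb2, at 41 in Bub1b and at 8 and 14 in Kif20b. Bub1b also held TTCGAA at -188.
Espl1 (separase, chr15:102296143-102296292, plus strand): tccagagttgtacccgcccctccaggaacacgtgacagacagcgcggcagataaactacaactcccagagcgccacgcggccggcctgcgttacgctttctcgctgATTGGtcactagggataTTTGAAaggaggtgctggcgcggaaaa
Ccnb2 (cyclin B2, chr9:70421555-70421704, minus strand): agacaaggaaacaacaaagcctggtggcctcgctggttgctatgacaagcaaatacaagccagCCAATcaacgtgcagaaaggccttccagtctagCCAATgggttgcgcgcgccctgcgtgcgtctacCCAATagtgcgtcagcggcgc
Bub1b (checkpoint kinase-like protein, chr2:118598061-118598210, plus strand): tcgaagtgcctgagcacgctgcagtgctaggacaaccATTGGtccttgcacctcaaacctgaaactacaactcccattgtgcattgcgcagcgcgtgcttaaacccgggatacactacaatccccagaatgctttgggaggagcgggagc
Top2a (topoisomerase II alpha, chr11:99024190-99024339, minus strand): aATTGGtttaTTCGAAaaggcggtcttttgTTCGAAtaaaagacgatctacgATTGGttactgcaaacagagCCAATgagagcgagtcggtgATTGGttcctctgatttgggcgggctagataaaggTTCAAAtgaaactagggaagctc
Mki67 (Ki-67, chr7:135716380-135716529, minus strand): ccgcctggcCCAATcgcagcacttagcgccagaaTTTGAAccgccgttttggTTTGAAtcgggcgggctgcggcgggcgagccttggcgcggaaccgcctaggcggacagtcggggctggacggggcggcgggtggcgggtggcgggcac
Kif11 (the spindle motor Eg5, chr19:37376232-37376381, plus strand): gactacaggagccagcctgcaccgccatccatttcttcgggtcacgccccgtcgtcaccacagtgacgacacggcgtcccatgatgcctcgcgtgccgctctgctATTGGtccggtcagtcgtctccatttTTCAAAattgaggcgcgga
Kif20b (a kinesin of the midzone, chr19:34922208-34922357, plus strand): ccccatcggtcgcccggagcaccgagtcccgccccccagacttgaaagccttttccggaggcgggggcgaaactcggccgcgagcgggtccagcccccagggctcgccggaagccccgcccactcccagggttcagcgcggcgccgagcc

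TTTGAA or TTCGAA stood in the window of 30 of the 40 genes, against 21.7% of 27025 genes with a window and 18.8% of 32 S phase genes. CCAAT stood in 72.5% of the mitosis and spindle genes, 59.4% of the S phase genes and 41.1% of all genes, and at least 2 CCAAT boxes stood in 20 of the 40 mitosis and spindle genes, 34.4% of the S phase genes and 13.3% of all genes. Both kinds of element occurred in 62.5% of the mitosis and spindle genes and 8.6% of all genes. The unrelated motif CACGTG occurred in 7.5% and 8.1%. Of the 30 genes with TTTGAA or TTCGAA, 17 exceeded WT in Atm-/- lymphomas and 15 in Rag2c/c p53-/- lymphomas. Of the 10 without, 5 and 5 did. Over all genes tested, 21.0% and 17.5% did.

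In WT thymus the genes were already well expressed. Per kilobase of exon, the median member lay above 76.3% of the 15759 tested genes with a known length, and the members ranged from the 47.1 to the 97.7 percentile. Top2a stood highest at 2684 normalized counts per kb, followed by Mki67 at 1621, Ccna2 at 1311 and Ccnb2 at 1306, and Cenpk, a subunit of the inner kinetochore, stood lowest at 135.4. The median over all tested genes was 159.6 normalized counts per kb.

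Most mitosis and spindle genes were higher in the lymphomas than in WT thymus, and none was lower by the test. In Atm-/- lymphomas 31 of 49 were higher, 0 lower, and 18 did not pass limma's test at an adjusted p of 0.05, where 21.0% of all genes were higher and 23.6% lower. In Rag2c/c p53-/- lymphomas 28 were higher, 0 lower and 21 did not pass, where 17.5% of all genes were higher and 19.7% lower. The median fitted log2 difference of the members was 0.684 in Atm-/- (1.607-fold) and 0.696 in Rag2c/c p53-/- lymphomas (1.620-fold), beside medians of -0.019 and -0.018 over all genes. The changes were modest in size. A difference of at least 2-fold was reached by 9 genes in Atm-/- lymphomas, where 12.6% of all genes were higher by that rule, and by 13 in Rag2c/c p53-/- lymphomas, where 9.77% were. All 5 lymphomas lay above all 3 WT libraries for 24 genes in the Atm-/- and 28 in the Rag2c/c p53-/- lymphomas, beside 23.4% and 19.7% of all genes. Without WT 1 the count in Atm-/- lymphomas was 20, the largest move that leaving out a library made, and 15.4% of all genes were then higher.

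**Figure D1:**
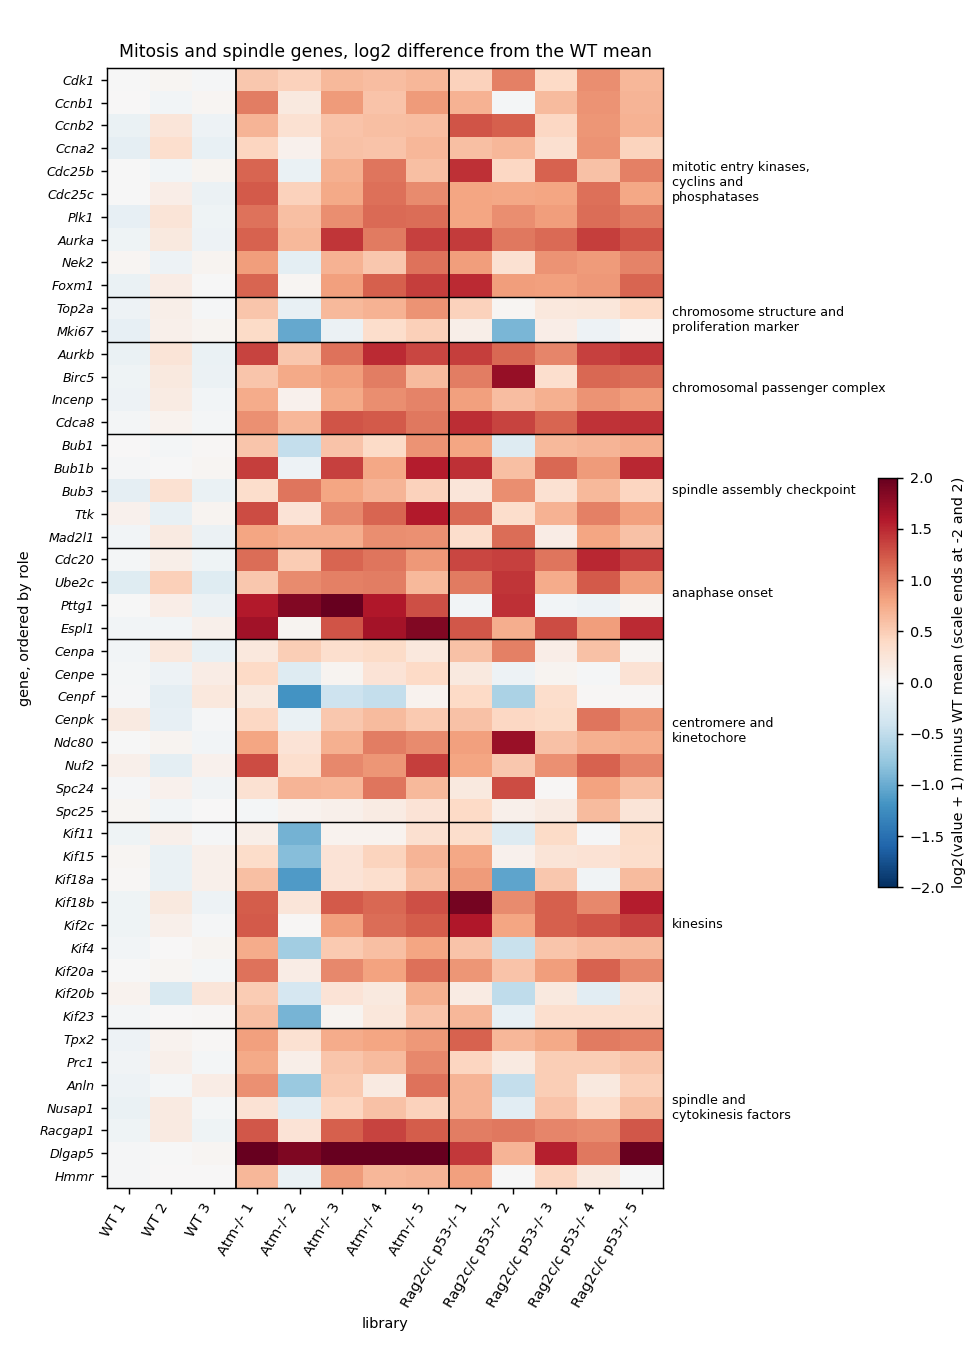
Each square is 1 gene in 1 library, as log2(normalized count + 1) minus the mean of the 3 WT libraries, with genes in rows by role and libraries in columns by group. Red fills most lymphoma columns, while Atm-/- 2 and Rag2c/c p53-/- 2 have blue squares among the kinesins and at Mki67 and Cenpf.

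Most genes of mitotic entry rose in both lymphoma groups. Of these 10 genes, 8 were higher in the Atm-/- and 9 in the Rag2c/c p53-/- lymphomas, beside 21.0% and 17.5% of all genes. Cdk1, the kinase that starts mitosis, had 1599, 1637 and 1567 normalized counts in WT, 2319, 2213, 2500, 2457 and 2546 in Atm-/-, and 2215, 3222, 2109, 3062 and 2549 in Rag2c/c p53-/- libraries. Every lymphoma lay above every WT thymus, and the log2 differences were 0.59 ± 0.15 (SE; adjusted p = 0.0066, limma) and 0.70 ± 0.15 (adjusted p = 0.00299). Its partner Ccnb1 (cyclin B1) had 2024, 1936 and 2054 in WT, 4071, 2288, 3623, 2976 and 3605 in Atm-/-, and 3238, 1942, 3096, 3721 and 3227 in Rag2c/c p53-/- libraries. Ccnb1 was higher in Atm-/- lymphomas by 0.70 ± 0.22 on the log2 scale (limma adjusted p = 0.0182), a call lost without any 1 of the WT libraries (adjusted p 0.053 to 0.0594). In Rag2c/c p53-/- lymphomas its difference was 0.57 ± 0.22 with a limma adjusted p of 0.0511, and library 2 alone lay among the WT values.

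Plk1, the kinase of centrosome maturation and spindle assembly, had 1980, 2648 and 2103 normalized counts in WT, 4743, 3380, 4240, 4898 and 4827 in Atm-/-, and 3827, 4239, 3956, 4819 and 4573 in Rag2c/c p53-/- libraries. The lymphoma values lay well clear of WT, with log2 differences of 0.98 ± 0.16 (limma adjusted p = 0.000289) and 0.94 ± 0.16 (adjusted p = 0.000542). Aurka, the Aurora kinase of the spindle poles, had 1257, 1524 and 1237 in WT, 3027, 2096, 3575, 2739 and 3434 in Atm-/-, and 3532, 2780, 2934, 3461 and 3199 in Rag2c/c p53-/- libraries. Its levels were 2.192-fold and 2.375-fold those of WT (limma adjusted p = 0.000226 and 0.000181). The 29 tested neighbours of Aurka within 2 Mb had median log2 differences of 0.516 and 0.578, with 11 higher in each group. Over chromosome 2 the medians were 0.037 and 0.063. Foxm1, a transcription factor of G2 and M phase genes, had 2245, 2713 and 2446 in WT, 5545, 2535, 4349, 5648 and 6434 in Atm-/-, and 6959, 4407, 4324, 4476 and 5520 in Rag2c/c p53-/- libraries. Atm-/- 2 was the only lymphoma that lay within the WT range, and the log2 differences were 0.92 ± 0.26 (limma adjusted p = 0.0119, and 0.0528 without WT 1) and 1.04 ± 0.26 (adjusted p = 0.00777).

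Cdc25b, a phosphatase that activates Cdk1, had 2139, 2066 and 2225 normalized counts in WT, 4798, 1964, 3518, 4492 and 3250 in Atm-/-, and 5891, 2844, 4862, 3209 and 4296 in Rag2c/c p53-/- libraries. Again only Atm-/- 2 was low. The log2 difference was 0.68 ± 0.28 in Atm-/- (limma adjusted p = 0.0621) and 0.93 ± 0.28 in Rag2c/c p53-/- lymphomas (adjusted p = 0.02), and the latter call was lost without any 1 of the WT libraries (adjusted p 0.0578 to 0.0651). Of the other 4 genes of this role, Ccnb2, Ccna2 (cyclin A2) and Cdc25c passed in both lymphoma groups, with log2 differences of 0.47 to 0.90. Ccnb2 stood at 0.55 ± 0.19 (limma adjusted p = 0.028) and 0.89 ± 0.19 (adjusted p = 0.00263), with every lymphoma above every WT library. Nek2, a kinase of centrosome separation, passed in Rag2c/c p53-/- lymphomas (0.78, limma adjusted p = 0.0234) and had 0.59 in Atm-/- lymphomas (adjusted p = 0.0621).

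The chromosomal passenger complex corrects faulty attachments and acts in cytokinesis. All 4 of its subunits were higher in both lymphoma groups, beside 21.0% and 17.5% of all genes. Aurkb, its kinase, had 1621, 2134 and 1631 normalized counts in WT, 4539, 2590, 3792, 5016 and 4473 in Atm-/-, and 4661, 3935, 3508, 4610 and 4791 in Rag2c/c p53-/- libraries. Both groups lay above WT, by 2.236-fold and 2.398-fold (limma adjusted p = 0.000583 and 0.000462). Cdca8 (borealin) had 1814, 1943 and 1808 in WT, 3481, 2946, 4415, 4358 and 3862 in Atm-/-, and 5165, 4742, 4148, 5033 and 5097 in Rag2c/c p53-/- libraries. It showed the highest difference of all members in Rag2c/c p53-/- lymphomas, 1.38 ± 0.15 (limma adjusted p = 2.79e-05), and 1.02 ± 0.15 in Atm-/- lymphomas (adjusted p = 0.000138). Cdca8 overlaps another annotated gene, 9930104L06Rik, with a mean of 617 normalized counts. Cdca8, Cdc20 and Kif2c lie on chromosome 4, whose 1010 tested genes had a median log2 difference of 0.103 in the Atm-/- and 0.371 in the Rag2c/c p53-/- lymphomas. In Rag2c/c p53-/- lymphomas the 57 neighbours of Cdca8 within 2 Mb had a median of 0.895 with 27 higher, the 62 of Cdc20 0.753 with 31 higher, and the 61 of Kif2c 0.571 with 26 higher.

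Birc5 (survivin) had 1783, 2170 and 1755 normalized counts in WT, 2785, 3211, 3381, 3868 and 2926 in Atm-/-, and 3852, 6319, 2398, 4220 and 4106 in Rag2c/c p53-/- libraries. The lymphomas did not overlap WT, and the log2 differences were 0.76 ± 0.24 (limma adjusted p = 0.0185) and 1.08 ± 0.24 (adjusted p = 0.0034). The Atm-/- call was lost without WT 1 or WT 3 (adjusted p = 0.0696 and 0.0743). Incenp, the scaffold of the complex, differed by 0.70 and 0.78 on the log2 scale and passed in both.

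**Figure D2:**
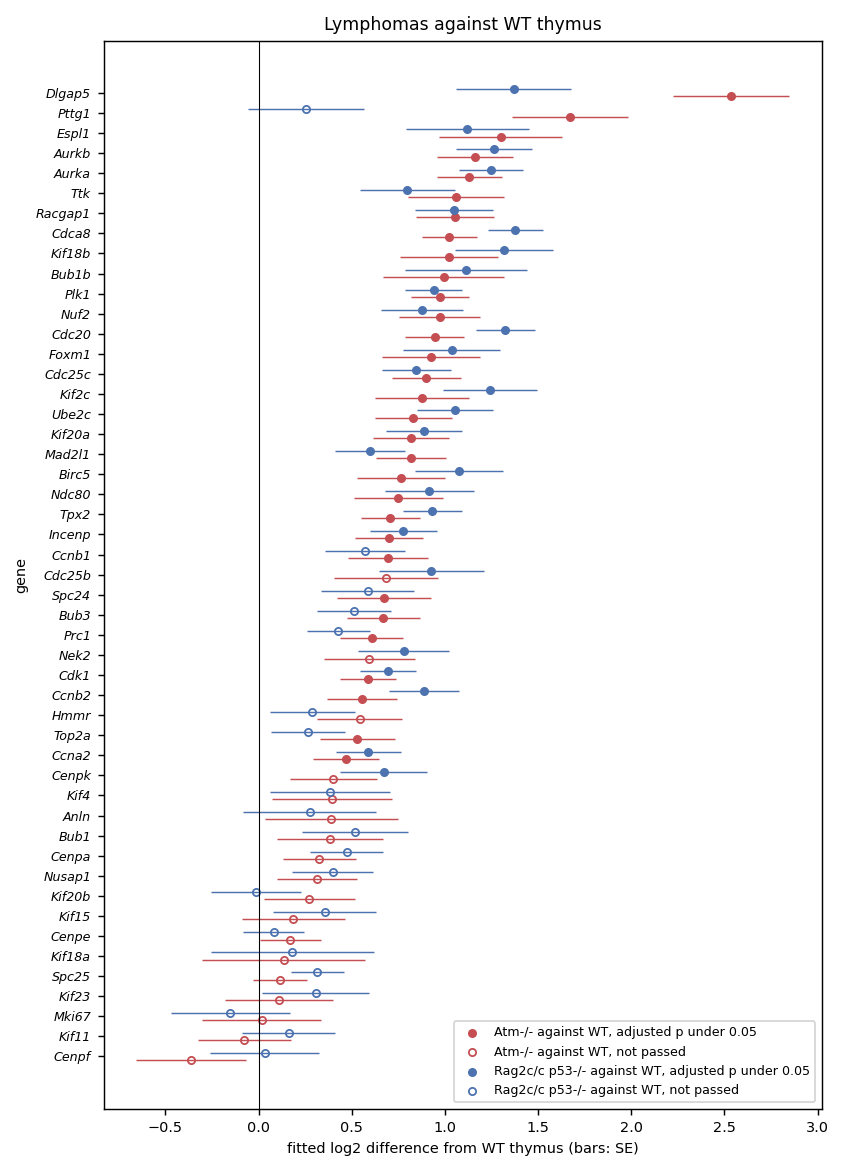
Fitted log2 difference from WT thymus for each of the 49 genes in Atm-/- (red) and Rag2c/c p53-/- lymphomas (blue), with bars of 1 SE and filled points for an adjusted p under 0.05. Dlgap5 and Pttg1 stand apart at the top in Atm-/- lymphomas, at 2.54 and 1.67, and Cenpf, Kif11 and Mki67 lie at the bottom.

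The genes of the spindle assembly checkpoint rose in part. Of 5 genes, 4 were higher in the Atm-/- and 3 in the Rag2c/c p53-/- lymphomas, beside 21.0% and 17.5% of all genes. Bub1b (BubR1), which inhibits Cdc20, had 3358, 3385 and 3495 normalized counts in WT, 8864, 3172, 8788, 5815 and 10091 in Atm-/-, and 9436, 5171, 7531, 6176 and 9688 in Rag2c/c p53-/- libraries. Apart from Atm-/- 2, which lay just under WT, every lymphoma was above it. The log2 differences were 0.99 ± 0.33 (limma adjusted p = 0.0245) and 1.11 ± 0.33 (adjusted p = 0.0167). Both calls rested on the number of libraries, since they were lost without any 1 of the WT libraries (adjusted p 0.066 to 0.0721 and 0.0529 to 0.0572) and the first also without Atm-/- 1, 3 or 5 (0.0503 to 0.0519). Ttk (Mps1), the kinase at the head of the checkpoint, and Mad2l1 (Mad2) passed in both groups with log2 differences of 0.60 to 1.06. Bub3 passed in Atm-/- lymphomas alone (0.67, limma adjusted p = 0.0147; 0.51 and 0.0566 in Rag2c/c p53-/-), and Bub1 in neither (0.38 and 0.52).

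The 4 genes of anaphase onset had the highest median of the roles in Atm-/- lymphomas, 1.122 on the log2 scale, and 1.087 in Rag2c/c p53-/- lymphomas. Cdc20, the activator of the anaphase-promoting complex, had 2042, 2277 and 1976 normalized counts in WT, 4551, 2964, 4682, 4415 and 3833 in Atm-/-, and 5275, 5390, 4393, 5928 and 5388 in Rag2c/c p53-/- libraries. Its log2 difference was 0.95 ± 0.16 (limma adjusted p = 0.000453) and 1.33 ± 0.16 (adjusted p = 6.86e-05), with no overlap between lymphomas and WT. Cdc20 overlaps Elovl1, which had a mean of 1488 normalized counts. In all, 10 members overlap a gene with a mean of at least 10. Among the others are Kif20a (Cdc23, 2603), Ccna2 (Exosc9, 923), Kif4 (Pdzd11, 753), Nusap1 (Oip5, 588) and Cdc25b (Spef1, 561). The part of the overlaps in these values was not tested. Espl1, the protease that opens cohesin, had 1680, 1673 and 1860 in WT, 5558, 1793, 4166, 5483 and 6245 in Atm-/-, and 4119, 2888, 4270, 3096 and 4876 in Rag2c/c p53-/- libraries. Atm-/- 2 lay among the WT values, the other lymphomas above them. The log2 differences were 1.30 ± 0.33 (limma adjusted p = 0.00659) and 1.12 ± 0.33 (adjusted p = 0.0176, and 0.0617 and 0.0589 without WT 1 and WT 2). Ube2c, the ubiquitin-conjugating enzyme of the complex, differed by 0.83 and 1.05 and passed in both.

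Pttg1 (securin), the inhibitor of separase, divided the lymphoma groups. It had 491, 539 and 452 normalized counts in WT, 1479, 1790, 1999, 1497 and 1207 in Atm-/-, and 473, 1354, 474, 459 and 506 in Rag2c/c p53-/- libraries. All Atm-/- lymphomas were high, 4 of the 5 Rag2c/c p53-/- lymphomas were at the WT level, and Rag2c/c p53-/- 2 was as high as the Atm-/- lymphomas. The log2 difference from WT was 1.67 ± 0.31 in Atm-/- (limma adjusted p = 0.000912) and 0.26 ± 0.31 in Rag2c/c p53-/- lymphomas (adjusted p = 0.544). Its 10 tested neighbours within 2 Mb on chromosome 11 had a median of -0.241 and -0.178, and 0 of them were higher in either group.

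**Figure D3:**
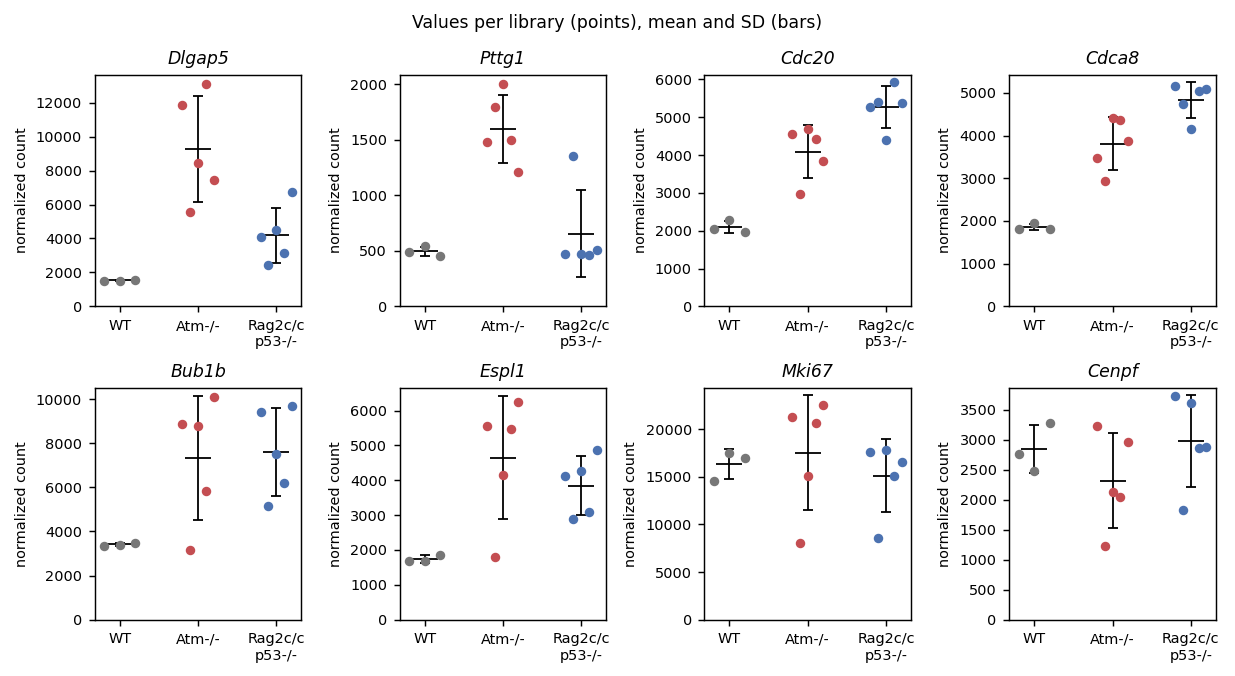
Normalized counts of 8 genes per library (points) with the mean and SD of each group (bars), on axes that start at 0 and differ between genes. Cdc20 and Cdca8 separate both lymphoma groups from WT, Pttg1 separates only Atm-/- apart from 1 high Rag2c/c p53-/- library, and Mki67 and Cenpf overlap between all groups.

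Of the 8 genes of the centromere and kinetochore, 3 were higher in each lymphoma group (37.5%), beside 21.0% and 17.5% of all genes. Ndc80 and Nuf2, partners in the complex that binds microtubules, were higher in both, by 0.75 to 0.97 on the log2 scale. Their partner Spc24 passed in Atm-/- lymphomas alone (0.67, limma adjusted p = 0.0425; 0.59 and 0.0816 in Rag2c/c p53-/-), Cenpk in Rag2c/c p53-/- lymphomas alone (0.67, 0.0362; 0.40 and 0.174 in Atm-/-), and Spc25 in neither (0.12 and 0.32). Cenpa, the centromeric histone H3, had 1673, 2021 and 1571 normalized counts in WT, 2030, 2453, 2198, 2275 and 2019 in Atm-/-, and 2613, 3509, 1922, 2615 and 1802 in Rag2c/c p53-/- libraries. The groups overlapped, with 0.33 ± 0.20 (limma adjusted p = 0.186) and 0.47 ± 0.20 (adjusted p = 0.0724). Cenpf, a large coiled-coil protein of the outer kinetochore, had 2766, 2482 and 3280 in WT, 3225, 1233, 2122, 2038 and 2964 in Atm-/-, and 3723, 1824, 3612, 2861 and 2878 in Rag2c/c p53-/- libraries. It had the lowest difference of the members in Atm-/- lymphomas, -0.36 ± 0.29 (limma adjusted p = 0.327), and 0.03 ± 0.29 in Rag2c/c p53-/- lymphomas (adjusted p = 0.936). Cenpe differed by 0.17 and 0.08 and passed in neither.

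Of 9 kinesins, 3 were higher in each lymphoma group (33.3%), Kif2c, Kif18b and Kif20a, beside 21.0% and 17.5% of all genes. Kif2c, a microtubule depolymerase of the centromere, had 1097, 1247 and 1137 normalized counts in WT, 2698, 1183, 2036, 2504 and 2677 in Atm-/-, and 3500, 2009, 2663, 2764 and 2986 in Rag2c/c p53-/- libraries. Atm-/- 2 stood among the WT values, and the log2 differences were 0.88 ± 0.25 (limma adjusted p = 0.0126, and 0.0505 without WT 1) and 1.24 ± 0.25 (adjusted p = 0.00205). Kif11, the bipolar motor that separates spindle poles, had 5363, 6104 and 5569 in WT, 6126, 2937, 5939, 5943 and 7059 in Atm-/-, and 7263, 4732, 7371, 5557 and 7284 in Rag2c/c p53-/- libraries. Its log2 differences were -0.08 ± 0.25 (limma adjusted p = 0.819) and 0.16 ± 0.25 (adjusted p = 0.637). Kif20b had 1475, 1140 and 1655 in WT, 2004, 1114, 1708, 1611 and 2309 in Atm-/-, and 1570, 990, 1615, 1218 and 1723 in Rag2c/c p53-/- libraries. The groups overlapped throughout, with 0.27 ± 0.24 (limma adjusted p = 0.372) and -0.01 ± 0.24 (adjusted p = 0.972). Kif15, Kif18a, Kif4 and Kif23 passed in neither group, with log2 differences of 0.11 to 0.39.

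Ki-67 and topoisomerase II alpha are widely used as markers of dividing cells. Top2a, which untangles sister chromatids, had 13106, 15109 and 13824 normalized counts in WT, 20554, 12626, 21812, 22714 and 26212 in Atm-/-, and 19154, 14381, 16113, 16439 and 18518 in Rag2c/c p53-/- libraries. It was higher in Atm-/- lymphomas by 0.53 ± 0.20 on the log2 scale (limma adjusted p = 0.0437), a call lost in 13 of 23 alternatives, among them without any 1 of the WT libraries (adjusted p 0.0678 to 0.138), and differed by 0.27 ± 0.20 in Rag2c/c p53-/- lymphomas (adjusted p = 0.308). Mki67 had 14506, 17474 and 16958 in WT, 21289, 8029, 15055, 20644 and 22584 in Atm-/-, and 17570, 8585, 17804, 15113 and 16582 in Rag2c/c p53-/- libraries. Library 2 of each lymphoma group was the low value, and the groups overlapped. The log2 differences of Mki67 were 0.02 ± 0.32 (limma adjusted p = 0.973) and -0.15 ± 0.32 (adjusted p = 0.734).

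Among the 7 factors of spindle assembly and cytokinesis, 4 were higher in the Atm-/- and 3 in the Rag2c/c p53-/- lymphomas. These are 57.1% and 42.9%, beside 21.0% and 17.5% of all genes. Tpx2, which activates Aurora A on the spindle, and Racgap1 (a subunit of centralspindlin) passed in both with log2 differences of 0.71 to 1.06. Racgap1 and Espl1 lie on chromosome 15, whose 582 tested genes had median log2 differences of 0.393 in the Atm-/- and 0.389 in the Rag2c/c p53-/- lymphomas. Within 2 Mb, the 77 neighbours of Racgap1 had medians of 0.244 and 0.289 and the 60 of Espl1 0.002 and 0.082. Prc1, the bundler of the central spindle, passed in Atm-/- lymphomas alone (0.61, limma adjusted p = 0.0107; 0.43 and 0.061 in Rag2c/c p53-/-), and Anln, Nusap1 and Hmmr passed in neither, with log2 differences of 0.27 to 0.54.

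Dlgap5 (HURP), which stabilizes kinetochore fibres, had the highest difference of all members in Atm-/- lymphomas. It had 1504, 1514 and 1559 normalized counts in WT, 11851, 5570, 8443, 13082 and 7471 in Atm-/-, and 4070, 2435, 4483, 3171 and 6751 in Rag2c/c p53-/- libraries. Every lymphoma was above every WT thymus. The log2 difference was 2.54 ± 0.31 in Atm-/- (5.802-fold, limma adjusted p = 4.55e-05) and 1.37 ± 0.31 in Rag2c/c p53-/- lymphomas (2.583-fold, adjusted p = 0.00416). Dlgap5 (chr14:47387779-47418407, GRCm38) lies 6.8 Mb from Trac, the constant region gene of the T cell receptor alpha chain. Its 26 tested neighbours within 2 Mb had a median log2 difference of 1.393 in Atm-/- lymphomas, where 18 were higher, and 0.101 in Rag2c/c p53-/- lymphomas, where 2 were higher. The 634 tested genes of chromosome 14 had medians of -0.376 and -0.047.

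The share of these genes that was lower in Rag2c/c p53-/- than in Atm-/- lymphomas was near that of all genes. Between these groups 0 members were higher, 2 were lower (4.1%) and 47 did not pass limma's test. Of all genes, 6.48% were higher and 5.13% lower. The 2 lower members also differed by at least 2-fold, as 3.51% of all genes did downward and 4.33% upward. The 2 were Pttg1, with a log2 difference of -1.42 ± 0.27 (limma adjusted p = 0.0048), and Dlgap5 (-1.17 ± 0.27, adjusted p = 0.0137). In 0 of the 49 genes, Pttg1 and Dlgap5 included, did the values of the lymphoma groups separate without overlap, as 4.48% (higher) and 3.85% (lower) of all genes did. The next lowest was Kif20b (-0.29 ± 0.21, adjusted p = 0.426, and -0.38 with 0.0218 under the length covariate described below), and the highest were Cenpf (0.40 ± 0.25, 0.353), Cdc20 (0.38 ± 0.14, 0.0948) and Kif2c (0.37 ± 0.22, 0.314). Without the 3 shallowest libraries Top2a also passed (-0.38, limma adjusted p = 0.0449). The 95% interval of the difference stayed within 1 log2 unit of 0 for all of the 47 genes and within 0.5 for 13. It held 0 for 45 of the 47, all but Cdca8 and Cdc20, whose intervals lay above 0. The intervals are not adjusted for the number of genes, and 1 log2 unit is wider than the median difference from WT. Genotype and strain go together in this comparison, for Pttg1 and Dlgap5 as for the other genes.

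Compared with WT, 25 genes rose in both lymphoma groups, 6 passed in Atm-/- lymphomas alone, 3 in Rag2c/c p53-/- lymphomas alone, and 15 in neither. Both comparisons share the 3 WT libraries. The share of all genes that passed in both was not counted, so these counts stand without a background. Of the 9 genes that passed in 1 comparison only, Pttg1 alone also passed the test between the lymphoma groups.

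The spread between libraries differed by group, as a description. The median within-group SD of log2 values was 0.121 in WT, 0.376 in Atm-/- and 0.296 in Rag2c/c p53-/- libraries. Per library, the median member stood 0.764, 0.123, 0.726, 0.769 and 0.872 above the WT mean in Atm-/- lymphomas 1 to 5 and 0.791, 0.617, 0.565, 0.856 and 0.730 in Rag2c/c p53-/- lymphomas 1 to 5. Atm-/- 2 was the low one, with 18 members under the WT mean against 0 to 2 in the other Atm-/- lymphomas. Rag2c/c p53-/- 2 had 13 under the WT mean against 1 to 6.

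Exonic length, counted over all annotated exons of a gene together, moved with these values. In Atm-/- 2 the 14 members with at most 2500 exonic bases had a median of 0.496 above the WT mean and the 7 with at least 5000 a median of -0.263, and in Rag2c/c p53-/- 2 the medians were 1.102 and -0.105. Over all genes, the level of long genes (5000 exonic bases or more) minus that of short ones (1500 or less) was -0.92 and -1.098 on the log2 scale in these libraries, against -0.423 to 0.369 in the other lymphomas and 0.348 to 0.831 in WT. Across the 49 members, exonic length had a Spearman correlation of -0.47 in Atm-/- 2 and -0.44 in Rag2c/c p53-/- 2 with the deviation from the group mean, a description over genes that share a library. In the other libraries it ran from -0.31 (Rag2c/c p53-/- 4) to 0.50 (Rag2c/c p53-/- 3 and WT 3), so that a relation with length of either sign was seen outside the shallow lymphomas too. In Atm-/- lymphomas 11 of the 14 short members and 3 of the 7 long ones were higher than in WT, and in Rag2c/c p53-/- lymphomas 9 and 2. Over all genes tested of the same lengths, 27.9% and 10.2% were higher in Atm-/- and 21.8% and 9.0% in Rag2c/c p53-/- lymphomas.

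**Figure D4:**
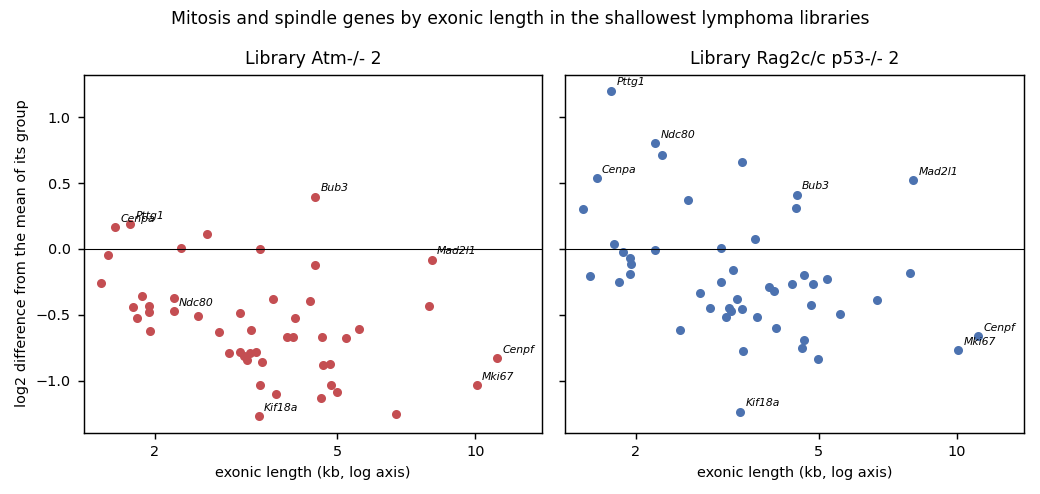
Exonic length of each gene (log axis, kb) against its log2 difference from the mean of its own lymphoma group in the shallowest library of each group. Most long genes, Mki67 and Cenpf among them, lie under 0 in both libraries, and Pttg1 and Cenpa lie above it.

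Without the 3 shallowest libraries, 38 members were higher in the Atm-/- and 35 in the Rag2c/c p53-/- lymphomas, and 0 were lower, where 22.2% and 16.4% of all genes were higher. With the difference of long and short genes as a covariate, an alternative added after the data were seen like the one before it, 34 and 39 were higher and the medians were 0.958 and 0.936, where 18.2% and 16.5% of all genes were higher. Mki67 then differed by 0.75 in Atm-/- (limma adjusted p = 0.0335) and 0.47 in Rag2c/c p53-/- lymphomas (adjusted p = 0.148), with 12 and 14 calls gained in all. In Atm-/- lymphomas 9 calls were lost, those of Cdk1, Ccnb2, Ccna2, Birc5, Bub3, Mad2l1, Ube2c, Ndc80 and Spc24 (adjusted p 0.0515 to 0.69), and in Rag2c/c p53-/- lymphomas 3, those of Ccna2, Mad2l1 and Ndc80 (adjusted p 0.0579 to 0.165). Kif20b passed under that covariate in both groups, at 0.87 (adjusted p = 0.00104) and 0.49 (adjusted p = 0.0191). The part of length in the differences of single genes cannot be told apart from genotype where WT and lymphoma libraries differ in the same way.

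Other genes of mitosis were higher in part. Of 120 other genes of mitosis, in 5 lists, 42 were higher and 6 lower in Atm-/- and 50 higher and 4 lower in Rag2c/c p53-/- lymphomas, with medians of 0.365 and 0.476. Over all genes 21.0% and 17.5% were higher. Among 28 other kinetochore genes, 11 were higher in each group and 2 and 0 were lower. Cenpm, of the inner kinetochore, stood at 1.51 and 1.44 and Pmf1, of the Mis12 complex, at 1.44 and 1.36, while Hjurp, the chaperone that loads Cenpa, was lower in Atm-/- lymphomas (-1.22, limma adjusted p = 0.0095; -0.76 and 0.0878 in Rag2c/c p53-/-). Among 35 other genes of the spindle, centrosome and cytokinesis, 13 and 18 were higher and 1 and 1 lower. Troap led them at 1.87 and 2.07, and Numa1, which anchors microtubules at the poles, was the lower gene in both (-0.64 and -0.68).

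Of 18 subunits and regulators of the anaphase-promoting complex, 5 were higher in each group, and 1 and 0 were lower, with Ube2s, which extends ubiquitin chains, at 0.97 and 0.87. Of 20 condensin and cohesin genes, 4 and 5 were higher, near the shares over all genes (21.0% and 17.5%), and 1 and 2 lower. Stag2, a cohesin subunit, was lower in both (-0.62 and -0.70) and Smc4, a condensin ATPase, was lower in Rag2c/c p53-/- lymphomas (-0.63, limma adjusted p = 0.00341). Of 19 other genes of G2/M control, 9 and 11 were higher and 1 and 1 lower, with Mybl2, a partner of Foxm1 in late cell cycle transcription, at 1.30 and 1.32.

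Most genes of S phase were higher too. Of 41, 36 were higher in the Atm-/- and 34 in the Rag2c/c p53-/- lymphomas and 0 were lower. Over all genes 21.0% and 17.5% were higher. The S phase genes had medians of 0.887 and 0.787. Chaf1b, of the histone chaperone CAF-1, stood at 1.76 in Atm-/- lymphomas and Orc1, of the origin recognition complex, at 1.39 in Rag2c/c p53-/- lymphomas. Pcna, the sliding clamp, did not pass (0.28, limma adjusted p = 0.182, and 0.20, 0.354). In Atm-/- 2 the S phase genes had a median of 0.425 above the WT mean and the mitosis and spindle genes 0.123, and in Rag2c/c p53-/- 2 the medians were 0.951 and 0.617.

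**Figure D5:**
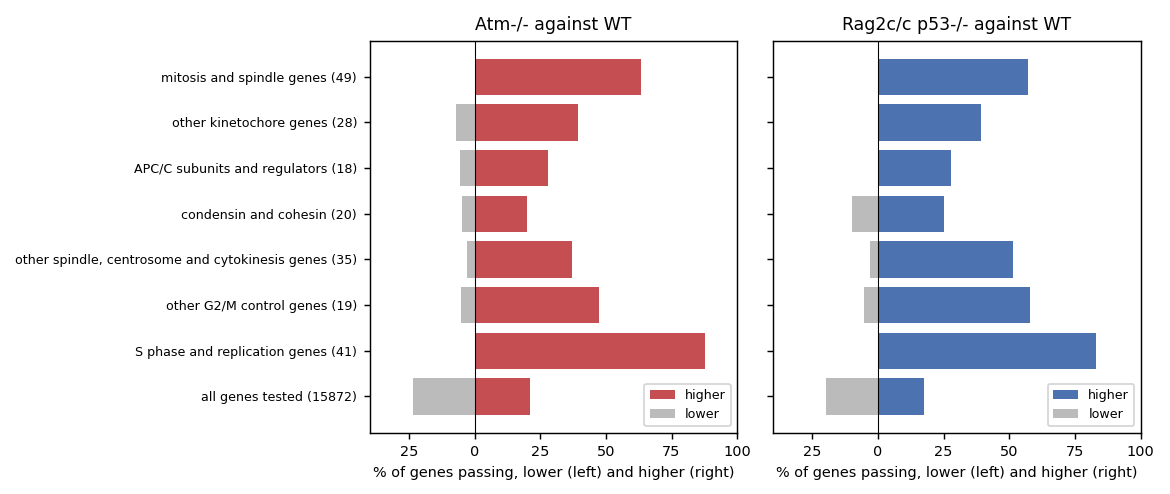
Share of genes that passed the test as higher (colour) or lower (grey) than WT, for the 49 genes, 6 lists of related genes and all 15872 genes tested, with the number of genes in brackets. The 49 genes stand at 63.3% and 57.1% higher, under the S phase genes at 87.8% and 82.9%, and near the other G2/M control genes (57.9%) in the Rag2c/c p53-/- panel.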

How the data were processed

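Reads (bcl2fastq 1.8.3) were mapped by the authors to GRCm38 using STAR 2.4.0g1, counted per Ensembl gene and normalized with DESeq2 1.6.3, per the labels and the study's methods, which describe the WT thymuses and were taken to hold for the lymphomas. The values the authors deposited are normalized counts rounded to whole numbers, an expression score rather than raw counts, so no count test was run. Deposited fold changes and p-values of the authors' own comparisons were not used. Values were tested as log2(value + 1), with a minimum of 10 in at least 3 libraries, with limma 3.58.1 in R 4.3.3 (trend and robust), all 3 groups in 1 fit, Benjamini-Hochberg over all genes. SE is that of the fit, and fold changes are on the scale of value + 1. The pipeline was tested on simulated data. Depth was estimated from the step between low values. Precision depends on 3 to 5 libraries a group. Gene positions were those deposited with the values, exonic lengths came from GENCODE M21 (GRCm38) and promoter windows from RefSeq. The fixed rule for values in every library took 15 chosen genes and the 3 highest and 3 lowest differences of each comparison. The pathway genes named were among the 2 highest and 2 lowest of each list. Cell type marker lists covered 6 cell types, and 1 further list is not reported here. Groups came from the genotype label. The members and lists were chosen with earlier results of these data known. Alternatives covered scaling, filter, pseudocount, model settings and leaving out each library.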

Additional observations from a re-analysis of the deposited data

Results flagged for a closer look

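Kif11 had 2937 normalized counts in Atm-/- 2, and the nearest of the other Atm-/- lymphomas had 5939, a gap of 0.728 of the group's range against a critical value of 0.71. The median member of Atm-/- 2 stood 0.123 above the WT mean on the log2 scale, with the nearest lymphoma of its group at 0.726 and a ratio of 0.805. Pttg1 had 1354 normalized counts in Rag2c/c p53-/- 2, where the nearest library of its group had 506 and the ratio was 0.947. These were 3 of 44 groups of 5 libraries examined, and chance marks about 1 in 20 such groups. Atm-/- 2 and Rag2c/c p53-/- 2 are also the shallowest lymphoma libraries and have the lowest level of long against short genes, and the part of depth and length in these values was not tested.

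The difference between the lymphoma groups passed limma's test for Pttg1 (-1.42 on the log2 scale, Rag2c/c p53-/- minus Atm-/-) and Dlgap5 (-1.17), each with an adjusted p given in the report.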

How the results depend on the processing

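Leaving out a library gave 20 to 36 members above WT in the Atm-/- and 20 to 32 in the Rag2c/c p53-/- lymphomas, and 0 lower. The shares of all genes higher moved too, from 14.9% to 23.6% and from 11.7% to 19.3%, and were lowest without WT 3. The medians of the members were 0.642 to 0.791 and 0.636 to 0.749. Between the lymphoma groups, leaving out a library gave 2 to 3 members lower and a median of -0.081 (without Atm-/- 2) to 0.143. The 2-fold rule left 9 and 13 higher. Array weights gave 43 and 40 higher, where the shares of all genes also rose, to 33.3% and 28.7%, and a median of -0.030 between the lymphoma groups, and leaving out the 3 shallowest libraries -0.024. The covariate for long and short genes gave 0.936 as the median of Rag2c/c p53-/- lymphomas against WT. Over 23 alternatives, 17 members passed in all of them for Atm-/- and 19 for Rag2c/c p53-/-. The share of all genes that passed in every alternative was not counted, so these counts stand without a background.

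Among the genes with values in every library, signs changed against WT only for differences that had not passed. In Atm-/- lymphomas against WT, leaving out a library moved Mki67 between -0.099 and 0.274 and Kif11 between -0.176 and 0.141. Kif11 was 0.162 with array weights, 0.194 without the shallowest libraries and 0.463 with the covariate, which also gave Cenpa -0.071 and Cenpf 0.399. For the Rag2c/c p53-/- lymphomas, leaving out a library gave -0.233 to 0.041 for Mki67, -0.045 (without Rag2c/c p53-/- 2) to 0.345 for Pttg1, -0.059 to 0.200 for Cenpf and -0.164 to 0.111 for Kif20b. Array weights gave Mki67 0.050 and Kif20b 0.015, and leaving out the shallowest libraries gave Mki67 0.093. The covariate gave Mki67 0.466, Pttg1 -0.306 and Kif20b 0.489, of which Kif20b passed. The cause was not tested. Between the lymphoma groups, 24 of the 49 members changed sign in some alternative, so single values of that comparison are given only for its 3 highest and 3 lowest members and for Top2a where it passed, a limit set after the values were seen. No paired analysis was possible because the labels give no numbers that groups share and each library is a different mouse.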
